A study of Arabidopsis thaliana with 114 samples.

Results

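The comparison is of Arabidopsis thaliana roots 5 min after supply of nitrogen (N) with roots 5 min after KCl, as RNA sequencing counts per gene. It holds 6 of the 114 libraries of a time course of shoots and roots, 3 of N and 3 of KCl, found by organ tag, time tag and the treatment letter in the title. All seedlings were grown on 1% sucrose and 1 mM KNO3. The N group then received 20 mM KNO3 with 20 mM NH4NO3 (60 mM nitrogen in all), and the KCl group received 20 mM KCl. Roots at time 0 (3 libraries) had received neither. The time tags carry no unit and are read as min. Ecotype and age are not given in the labels used here. Nitrate, ammonium, chloride and the amount of salt all differed between N and KCl, and their effects cannot be told apart. The labels do not say whether the 3 libraries of a group come from separate cultures, so the spread between them may be technical. In the main fit of the root, p-values rest on the spread within groups pooled over all 57 root libraries. RNA came from whole roots, in which more cells of a type and more RNA per cell cannot be told apart.

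Nitrate is taken up by transporters of the NRT1/NPF and NRT2 families, reduced to nitrite by nitrate reductase and on to ammonium by nitrite reductase. The reduction draws electrons from ferredoxin and NADPH, which roots supply largely through the oxidative pentose phosphate pathway. Nitrate is also a signal: NLP transcription factors switch on a first wave of genes without new protein synthesis, among them the transporters, the reductases and regulators of the LBD and HHO families. Ammonium enters through AMT transporters and is built into glutamine by glutamine synthetase.

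At 5 min 7 of the 11 genes of nitrate reduction and reductant supply were called higher with N than with KCl, as were the regulators LBD37, LBD38 and LBD39. None of these calls held when N replicate 3 was left out. The gene lists were chosen with earlier results of these data known. Of 22185 genes tested, 436 were called (adjusted p below 0.05, edgeR quasi-likelihood test with Benjamini-Hochberg adjustment), which is 1.97% of the genes. Of these 266 were higher with N (1.2%) and 170 lower (0.766%). At an unadjusted p below 0.05 there were 3927 genes. The called differences were modest: the median log2 fold change, N minus KCl, was 0.66 among the higher and -0.61 among the lower genes, and 52 higher and 16 lower genes reached a 2-fold change. The N and KCl libraries did not overlap in 411 of the 436 called genes (94.3%), against 4818 of all 22185 genes (21.7%). The genes were called on these same libraries, so the choice of the genes favours separation and the higher share is no separate evidence.

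**Figure D1:**
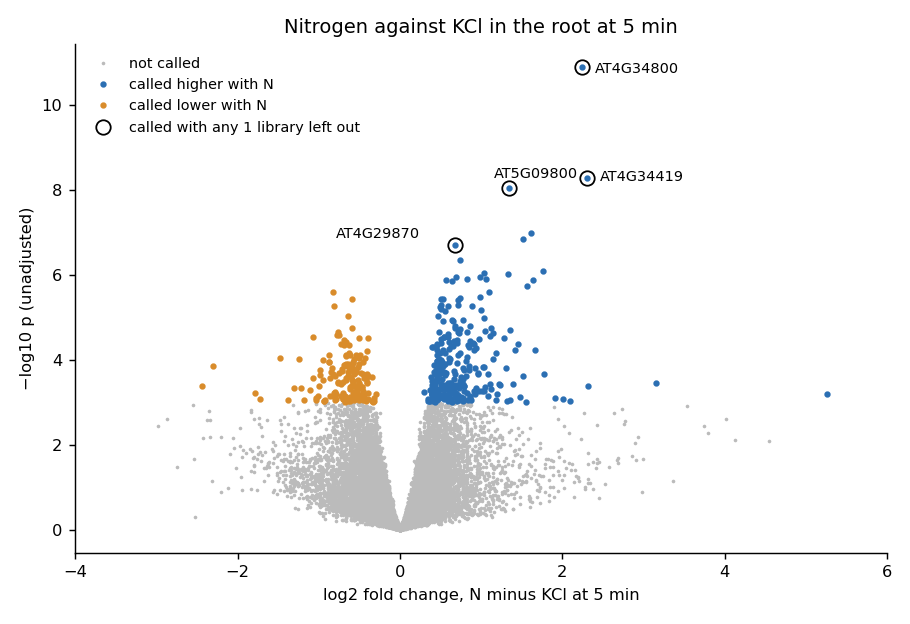
Each point is 1 of 22185 genes, by its log2 fold change (N minus KCl in the root at 5 min, x axis) and its unadjusted p as −log10 (y axis). Blue points are the 266 genes called higher, orange points the 170 called lower, and the 4 circled genes were called whichever 1 of the 6 libraries was left out.

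The 4 genes called whichever library was left out were all higher with N. AT4G34800 belongs to the SAUR family, small proteins whose first known members are induced by auxin. It stood at 1.12, 1.49 and 1.62 CPM (counts scaled to a common library size) in KCl replicates 1 to 3 and at 5.9, 5.19 and 8.98 CPM in N replicates 1 to 3. The groups were far apart, N replicate 3 was the highest library, and the log2 fold change was 2.24 (SE 0.248, adjusted p = 2.85e-07 by edgeR). AT4G34419, annotated as an uncharacterized protein, read 6.7, 5.69 and 7.86 CPM in KCl and 22.8, 36.8 and 40 CPM in N. Its groups did not overlap either, with N replicate 1 the lowest of the N libraries and a log2 fold change of 2.3 (SE 0.318). AT5G09800, an ARM repeat protein, read 15.3, 13.4 and 14.7 CPM in KCl and 26.8, 30.6 and 52.5 CPM in N, with N replicate 3 well above the others (log2 1.34, SE 0.19). AT4G29870, of the oligosaccharyltransferase complex/magnesium transporter family, gave the tightest values of the 4, at 21.1, 19.8 and 23.2 CPM in KCl and 32.7, 33.6 and 36.2 CPM in N (log2 0.68, SE 0.11). All 4 lost their call when only the 6 libraries compared were fitted, a fit that called no gene at all. With replicate number added to that fit as a block, 342 genes were called, and the 4 were among them.

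The calls depended on single libraries, and on 2 of them above all. Without N replicate 3 the count fell to 4, all higher, and without KCl replicate 2 to 16, all higher. Each of those 4 and 16 genes was among the 436. Without KCl replicate 1 it was 122 (73 higher, 49 lower) and without N replicate 1 it was 257 (208 higher, 49 lower). Leaving out N replicate 2 raised the count to 1079 (562 higher, 517 lower), and leaving out KCl replicate 3 raised it to 781 (387 higher, 394 lower). So the fit with fewer libraries called more genes in these last 2 cases. Of the 436 genes, 407 were still called without N replicate 2, 392 without KCl replicate 3, 207 without N replicate 1 and 119 without KCl replicate 1. None of the 170 lower calls remained without N replicate 3 or without KCl replicate 2. With the 6 libraries alone, and so with no spread borrowed from the other 51 root libraries, edgeR called 0 genes, with 3361 at an unadjusted p below 0.05.

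**Figure D2:**
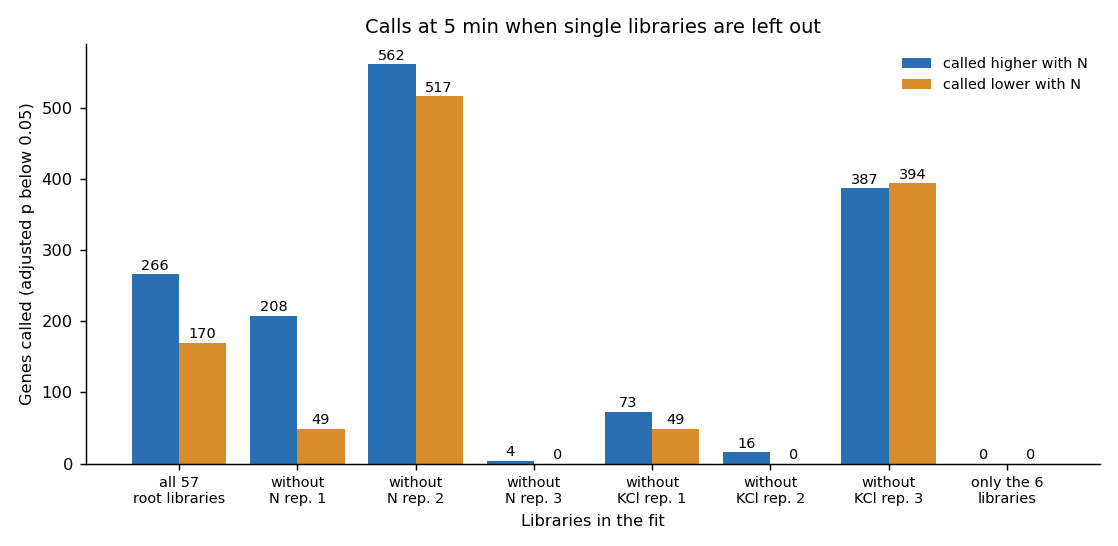
Bars give the number of genes called higher (blue) and lower (orange) with N at 5 min, with all 57 root libraries in the fit, with 1 library left out in turn, and with only the 6 libraries compared. The count runs from 4 without N replicate 3 to 1079 without N replicate 2.

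Counted over the 6 fits that leave out 1 library each, 4 of the 436 genes were called in all 6 fits, 10 in 5 fits, 81 in 4, 108 in 3, 192 in 2, 39 in 1 and 2 in none. The 10 genes called in 5 fits were all higher with N and all lost their call without N replicate 3. They are NIR1, MAPKKK14, LBD38, LBD37, RTFL17, AMT1;1, AXR3, CER10, AT1G29660 and AT4G32390, of which CER10 and AT4G32390 were named after their values were seen. Without that library NIR1, LBD38, MAPKKK14 and AMT1;1 each had an adjusted p of 0.0603 by edgeR, close to the threshold.

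A single called gene changed direction with a library left out. SAG12, a cysteine protease gene known as a marker of leaf senescence and singled out here after its values were seen, had the largest log2 fold change of all calls, 5.26 (SE 1.41, adjusted p = 0.0431 by edgeR). Its level was 0.0224, 0.0201 and 0.0606 CPM in KCl and 4.23, 0 and 0.0638 CPM in N. The difference lies in N replicate 1 alone, and without it the log2 fold change was -0.13 (SE 1.81).

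Nitrite reductase, which turns nitrite into ammonium in plastids, had the smallest p among the genes of nitrate use on the lists. NIR1 read 65.1, 51.5 and 72.9 CPM in KCl and 115, 176 and 287 CPM in N. The groups did not overlap, and N replicate 3 was highest and N replicate 1 lowest of the N libraries. The log2 fold change was 1.61 (SE 0.254, adjusted p = 0.000579 by edgeR).

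Of the 11 genes on the list of nitrate reduction and reductant supply, 7 were called higher and none lower, all 11 log2 fold changes were above 0 and their median was 0.72, against 0 for all genes tested. Beside NIR1 these were NIA1, 1 of the pair of nitrate reductases (log2 0.86, SE 0.238), UPM1, which makes the sirohaem cofactor of nitrite reductase (0.69, SE 0.187), the root ferredoxin reductase FNR2 (0.79, SE 0.207), the ferredoxin FD3 (0.65, SE 0.145) and the 6-phosphogluconate dehydrogenases PGD1 (0.74, SE 0.141) and PGD3 (0.99, SE 0.175). The second nitrate reductase NIA2 had a log2 fold change of 0.72 (SE 0.265) and did not pass (adjusted p = 0.133 by edgeR). KCl replicate 2 was the low library for both reductases. NIA1 read 310, 129 and 323 CPM in KCl and 395, 452 and 539 CPM in N. NIA2 read 666, 297 and 756 CPM in KCl and 1015, 805 and 1002 CPM in N. In both genes the groups were separate. NIA1 lost its call in 4 of the 6 fits with 1 library left out, with the highest adjusted p, 0.397 by edgeR, without KCl replicate 2. The count of called list members was 0 without N replicate 3, 1 without KCl replicate 2, 4 without KCl replicate 1 and 6 to 8 with any other library left out.

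Regulators of the nitrate response were the next group. LBD37, LBD38 and LBD39 are transcription factors known to repress nitrogen-responsive genes. LBD37 read 35.6, 47.9 and 37.1 CPM in KCl and 61, 115 and 128 CPM in N (log2 1.33, SE 0.235, adjusted p = 0.00186 by edgeR). LBD38 read 10.9, 22.9 and 15 CPM in KCl and 35.6, 60.5 and 69.3 CPM in N (log2 1.76, SE 0.307). In both, KCl replicate 2 was the highest of the KCl libraries and N replicate 1 the lowest of the N libraries, without overlap. LBD39 stood at 1.34, 1.91 and 0.768 CPM in KCl and 2.14, 6.3 and 5.3 CPM in N (log2 1.77, SE 0.439, adjusted p = 0.0249 by edgeR), and was called in 1 of the 6 fits with 1 library left out. HHO1, a repressor of the GARP family that links nitrate and phosphate supply, read 6.29, 2.69 and 5.39 CPM in KCl and 7.79, 16 and 21.8 CPM in N (log2 1.66, SE 0.374), with KCl replicate 1 and N replicate 1 the nearest pair. Its relative HRS1 overlapped between the groups, at 9.36, 9.93 and 8.95 CPM in KCl and 8.87, 16.2 and 19.6 CPM in N, and did not pass (log2 0.66, SE 0.234, adjusted p = 0.116).

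Of the 21 nitrate-signalling regulators tested, 5 were called higher and none lower (the 5th was HHO3, log2 0.79, SE 0.194), and 18 log2 fold changes were above 0 with a median of 0.29. The factors thought to sense nitrate or act first were not among the calls: NLP7 had 0.23 (SE 0.147), NLP6 0.08 (SE 0.114) and TGA1 0.26 (SE 0.138). The kinase gene MAPKKK14, which is not on the list, read 6.9, 9.39 and 9.29 CPM in KCl and 15.7, 23.3 and 34.3 CPM in N (log2 1.52, SE 0.243, adjusted p = 0.000631 by edgeR). Its N libraries lay in the same order as those of NIR1, with replicate 3 highest. The list count was 0 without N replicate 3, 2 without KCl replicate 2, 3 without KCl replicate 1 and 4 to 6 otherwise.

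**Figure D3:**
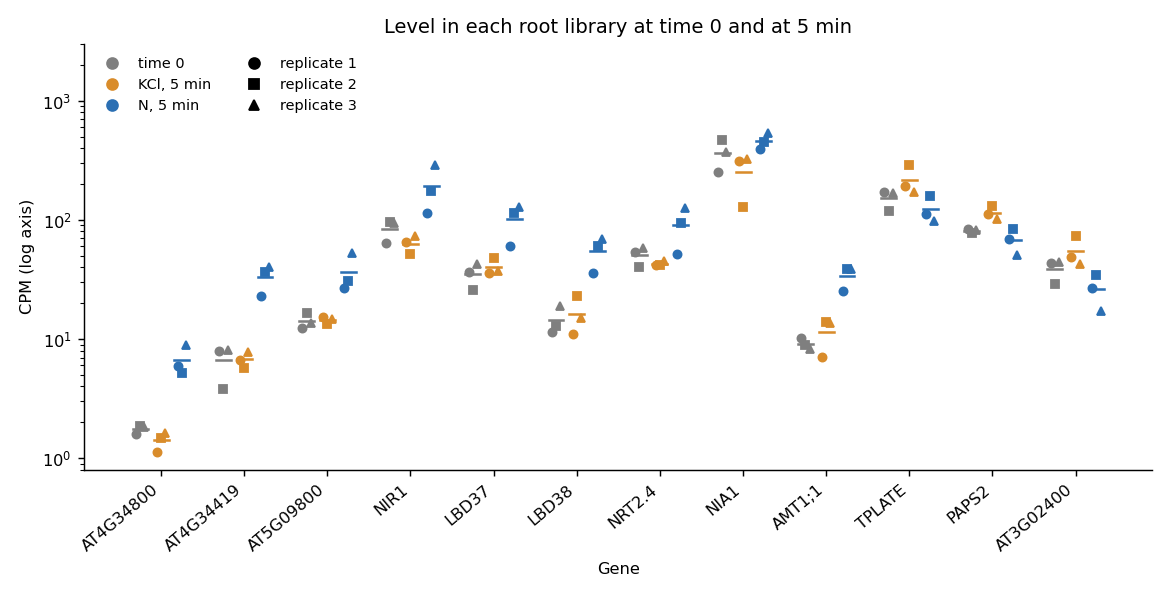
Level of 12 genes (x axis) as CPM on a log axis in each root library at time 0 (grey), 5 min KCl (orange) and 5 min N (blue). Marker shape gives the replicate number, which is not taken to pair libraries across groups, and the short line is the group mean. In NIR1, AT5G09800 and NRT2.4 N replicate 3 (triangle) is the highest N library, and in NIA1 and TPLATE KCl replicate 2 (square) stands away from the other KCl libraries.

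Nitrate transporters were less uniform. The high-affinity transporter NRT2.4 read 41.5, 41.9 and 45.2 CPM in KCl and 51.6, 93.5 and 126 CPM in N, so the N libraries spread widely above a tight KCl group (log2 1.08, SE 0.266, adjusted p = 0.0248 by edgeR). NRT3.1, the partner protein that NRT2 transporters need, read 77.5, 138 and 115 CPM in KCl and 124, 197 and 229 CPM in N. It was called (log2 0.74, SE 0.206, adjusted p = 0.0483), although N replicate 1 lay below KCl replicate 2. NRT2.1, the main high-affinity transporter, had a fold change as large as that of NRT2.4 (log2 1.06, SE 0.378) but was not called (adjusted p = 0.118), nor was it with any 1 library left out. N replicate 1 at 37.5 CPM lay among the KCl libraries (33.1, 45.4 and 45.6 CPM), and N replicates 2 and 3 stood at 107 and 114 CPM. NPF6.3, which transports and senses nitrate, had 0.76 (SE 0.219, adjusted p = 0.0547). Of the 13 transporters tested, 2 were called higher and none lower, 11 were above 0 and the median was 0.68. The list count was 0 without N replicate 3, KCl replicate 1 or KCl replicate 2.

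Among the 17 genes of ammonium uptake and assimilation 1 was called, 16 were above 0 and the median was 0.37. AMT1;1, an ammonium transporter of the root, read 7.1, 13.8 and 13.7 CPM in KCl and 25.3, 38.6 and 38.6 CPM in N (log2 1.56, SE 0.285, adjusted p = 0.00226 by edgeR). Every N library lay above every KCl library. AMT1;1 overlaps a gene on the opposite strand. The strand setting of the counting is not given, so reads of the 2 genes cannot be told apart. The same limit holds for UPM1 and PGD1 of the reduction list, which also overlap genes on the opposite strand. Glutamine synthetase GLN1;1 had 0.46 (SE 0.155) and did not pass (adjusted p = 0.093).

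The other higher calls with the smallest p lay outside these lists. SDH4, a subunit of mitochondrial succinate dehydrogenase, was higher by log2 0.74 (SE 0.126), SMT3 of sterol synthesis by 0.69 (SE 0.123), AXR3, a repressor of auxin response, by 0.83 (SE 0.148), RTFL17 of a family of small peptides by 1.06 (SE 0.189), the lipase family gene AT1G29660 by 1.03 (SE 0.181) and AT5G10210, which overlaps a gene on the other strand, by 1.64 (SE 0.293). All 6 had separate groups.

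Lower calls were smaller in size and more alike. Among the 15 with the smallest p the log2 fold change ran from -0.39 (GTE4, a bromodomain protein) to -1.07 (AT3G02400, a protein with an FHA domain). They were led by TPLATE, a subunit of an endocytic adaptor complex, which read 193, 290 and 172 CPM in KCl and 112, 160 and 98.4 CPM in N (log2 -0.82, SE 0.152, adjusted p = 0.00282 by edgeR). The groups were separate, with KCl replicate 2 highest and N replicate 3 lowest. PAPS2, a poly(A) polymerase, had the same order at both ends, at 112, 130 and 102 CPM in KCl and 68.9, 84.5 and 50.8 CPM in N (log2 -0.75, SE 0.16). Hrd1A, a ubiquitin ligase of protein degradation at the endoplasmic reticulum, was lower with N than with KCl by 0.59 (SE 0.111). TAF2, a subunit of general transcription factor TFIID, was lower by 0.64 (SE 0.128) and NPX1, a nuclear protein, by 0.76 (SE 0.159). FDM5 of RNA-directed DNA methylation was lower by 0.63 (SE 0.139). ALB1 of chlorophyll synthesis was lower by 0.66 (SE 0.144) and the DA1-related DAR4 by 0.69 (SE 0.149). The remaining named genes were AT2G19380, AT2G43490, AT3G25840, AT5G47390 and AT3G51640, between -0.51 and -0.81. Each of the 15 was called in 4 of the 6 fits with a library left out, and none without N replicate 3 or KCl replicate 2. TPLATE, AT2G43490, NPX1, PAPS2 and AT3G02400 overlap a gene on the opposite strand.

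The lower calls were longer transcripts than the higher ones. The median spliced length was 2502 nt among them, 1606 nt among the higher calls and 1683 nt over all genes tested, and the longest of 5 length classes of equal size held 86 of the 170 lower and 20 of the 266 higher calls. Over all genes of that class the median log2 fold change was 0.01, and it ran from -0.02 to 0.02 in the other classes.

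Measures of library quality moved with treatment. Reads in no gene made up 2.36% to 2.71% of reads in KCl, 1.43% to 1.89% in N and 1.78% to 2.23% at time 0. Counts of mitochondrial genes made up 0.854% to 1.77% of gene counts in KCl and 0.322% to 0.591% in N, without overlap. KCl replicate 2 was highest and N replicate 3 lowest in both measures, and these are the libraries without which most calls were lost. Over the 137 plastid and mitochondrial genes tested the median log2 fold change was -0.98, and 2 were called, both lower. With the share of reads in no gene as a covariate, an alternative chosen after seeing the data, 129 genes were called (94 higher, 35 lower), all of them among the 436. Of the nitrate lists, 4 genes of reduction, 4 regulators and 0 transporters were then called. The part of library quality in the calls beyond this fit was not tested.

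**Figure D4:**
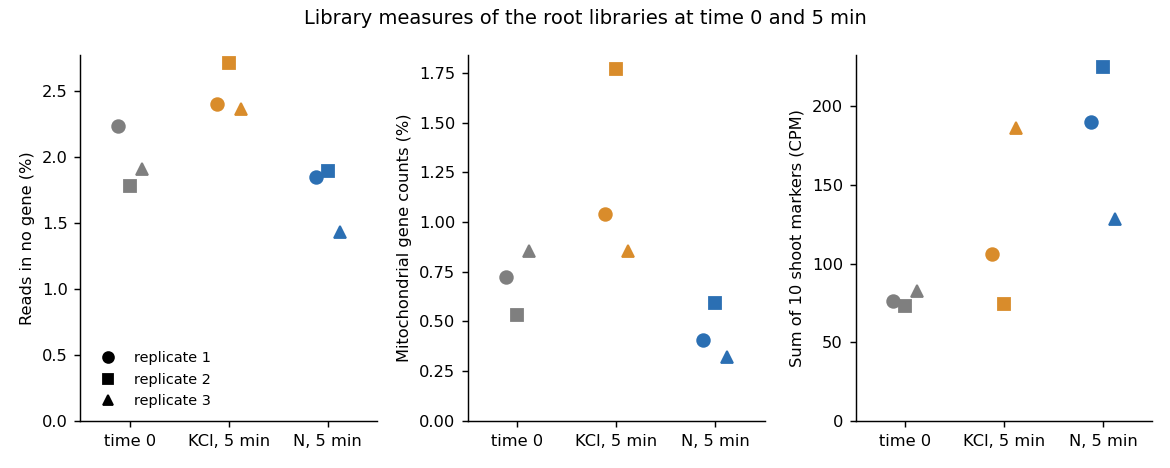
Share of reads in no gene (%), share of gene counts from mitochondrial genes (%) and summed level of the 10 shoot markers (CPM) in each root library at time 0 (grey), 5 min KCl (orange) and 5 min N (blue), with marker shape for the replicate. KCl lies above N in the first 2 measures, while the shoot marker sums of the groups overlap.

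Markers matched the organ label. Of the 13 root markers 12 were tested, all but IRT1, and these were detected in all 6 libraries. They ran from FRO2 (0.56 to 1.53 CPM) to the phosphate exporter PHO1 (156 to 249 CPM). The endodermal gene CASP1 (61.1 to 117 CPM) and the root hair regulator RHD6 (17.3 to 26.1 CPM) lay between. Of the 12, 1 was called higher and none lower. CASP1 was not called (log2 0.66, SE 0.212), though its groups were separate. Shoot markers were low in sum, 74 to 186 CPM in KCl and 128 to 225 CPM in N, and 73.3 to 82.3 CPM at time 0. None of the 10 was called and their median log2 fold change was 0.56. Gene counts per library were 39856101 to 43921388 in KCl, 42337116 to 47346543 in N and 80724946 to 143269564 at time 0.

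No gene of the following lists was called at 5 min by edgeR. The counts were 0 of 17 of cytokinin, 0 of 21 of touch and rapid stress, 0 of 16 of jasmonate and 0 of 12 of auxin. They were 0 of 14 of abscisic acid and osmotic stress, 0 of 13 of heat shock and 0 of 10 of low oxygen. For the circadian clock it was 0 of 12, and for CC-type glutaredoxins 0 of 3. These lists do not hold every gene of their class. AXR3 and the SAUR gene AT4G34800, both called, are not on the auxin list. The members of smallest p in these lists included the cytokinin response factor CRF3 (log2 0.51, SE 0.189), the response regulator ARR4 (-0.36, SE 0.145), the calmodulin-like TCH2 (0.36, SE 0.159), the zinc finger gene SZF1 (0.48, SE 0.185), JAZ1 (0.57, SE 0.227) and AOC3 (0.39, SE 0.126) of jasmonate, GH3.6 (0.64, SE 0.257) and IAA19 (-0.51, SE 0.212) of auxin, the phosphatases ABI2 (-0.54, SE 0.185) and ABI1 (0.31, SE 0.165), and the clock genes PRR9 (0.43, SE 0.231) and RVE1 (0.35, SE 0.253). GRXS4 and GRXS8, the glutaredoxins, were under 0.2 CPM in each library of the comparison.

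In 2 of these lists the members leaned one way. All 13 heat shock genes were below 0, with a median of -0.69, and the small heat shock gene HSP22.0 read 4.28, 4.18 and 2.26 CPM in KCl and 0.986, 0.48 and 0.638 CPM in N (log2 -2.34, SE 0.823, adjusted p = 0.113 by edgeR). HSP23.6 had -2.42 (SE 0.854). All 10 low-oxygen genes were above 0, with a median of 0.3, and the alcohol dehydrogenase ADH1 read 2102, 1354 and 2492 CPM in KCl and 3926, 3248 and 3574 CPM in N (log2 0.85, SE 0.307, adjusted p = 0.12). The sucrose synthase SUS4 had 0.78 (SE 0.372). The 3 time 0 libraries differed in ADH1 as much as the groups did, at 1927, 4674 and 1949 CPM, and replicate 2 of time 0 stood apart from the other 2.

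N at 5 min was also compared with roots before treatment, as was KCl. The comparisons of N and of KCl at 5 min with time 0 share the time 0 libraries, and each shares 3 libraries with N against KCl, so their values are given side by side only. KCl against time 0 gave 0 calls by edgeR (1047 genes at an unadjusted p below 0.05, and 0 calls by DESeq2). N against time 0 gave 40, all higher (0.18% of genes), among them AT4G34800, AT4G34419, AT5G09800, AMT1;1, LBD37, LBD38, LBD39, MAPKKK14, NIR1, NRT3.1, PGD1 and HHO3. That count was 11 without N replicate 3, 26 without N replicate 2, 68 without N replicate 1, and 15 and 12 without time 0 replicates 1 and 3. Among the 266 higher calls the median log2 was 0.39 for N minus time 0 and -0.23 for KCl minus time 0. Among the 170 lower calls these medians were -0.28 and 0.35, with signs that the choice of the genes favours. TPLATE had 0.51 (SE 0.151) for KCl minus time 0 and -0.31 (SE 0.151) for N minus time 0, neither of them called, whereas AT4G34419 had 0.02 and 2.32. Of the called genes of nitrate reduction and reductant supply, NIR1 and PGD1 passed for N minus time 0. NIA1 (0.34, SE 0.236), UPM1 (0.51, SE 0.187), FNR2 (0.59, SE 0.206), FD3 (0.56, SE 0.145) and PGD3 (0.72, SE 0.174) did not.

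The later times use other libraries than the 5 min comparison in the same fit of all root libraries. At 10, 15, 20, 30, 45, 60, 90 and 120 min, in that order, N against KCl called 8.02%, 8.26%, 2.68%, 3.31%, 7.78%, 14.5%, 8.27% and 18.6% of the genes tested higher. The shares called lower were 9.41%, 17%, 1.08%, 2.2%, 7.89%, 12.5%, 8.28% and 18.5%. Of the 266 genes higher at 5 min, 42 (15.8%) were called higher at 20 min and 2 lower. Of the 170 lower genes, 3 (1.76%) were called lower and 2 higher. At 30 min 44 of the 266 were called higher (16.5%) and 3 of the 170 lower (1.76%). Other times also called many of the 266 the other way: 51 were called lower at 10 min, 96 at 15 min and 86 at 120 min, against 40, 38 and 51 called higher. Of the 170, 58 were called higher at 15 min, 39 at 60 min and 44 at 120 min, against 15, 6 and 9 called lower. Of the 266, 187 were called higher at none of the 8 later times, and of the 170, 140 were called lower at none. The share of all genes called at none was not counted, so whether these counts differ from that share is not known.

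A group of 27 genes was called higher at 5 min and at each of the 8 later times, which is 10.2% of the 266, and 129 of all genes (0.581%) were called higher at all 8. The 27, singled out after their values were seen, include NIR1, NIA1, UPM1, FNR2, FD3, PGD1, PGD3, NRT3.1, LBD37, LBD38, LBD39, HHO3, MAPKKK14, RTFL17, AT5G10210, AT4G34419, the transcription factor bZIP3 and the mitochondrial carrier mSFC1. Their median log2 fold change at 5, 20 and 30 min was 0.94, 2.04 and 2.79. The median at 5 min over the other higher calls was 0.63. Of the 129 genes called at all later times, 106 were above 0 at 5 min. Of the 27, 25 were still called at 5 min without N replicate 1, 15 with the share of reads in no gene as covariate, 6 without KCl replicate 2 and 1 without N replicate 3. No gene was called lower at 5 min and at all later times, whereas 36 genes were called lower at all later times.

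Other genes were called at 5 min and not at 20 min, or were called the other way later. For AMT1;1 the log2 fold change of 1.56 at 5 min stood beside 0.1 (SE 0.332) after 10 min and 0.18 (SE 0.282) after 20 min. NRT2.4, a transporter known for high expression under nitrogen starvation, had 1.08 at 5 min, 0.47 (SE 0.263, not called) after 20 min, and the called values -1.52 (SE 0.269) after 90 min and -2.63 (SE 0.28) after 120 min. SDH4, AXR3, SMT3 and AT1G29660 had log2 fold changes of 0, -0.32, -0.2 and 0.01 at 20 min, none of them called there. SMT3 was called lower with N at 10, 15, 30, 60, 90 and 120 min (log2 -0.48, adjusted p = 0.00508 by edgeR at 10 min). AXR3 was called lower at 10 and 15 min (-0.51 and -0.53) and SDH4 at 10 min (-0.41), while AT1G29660 was called higher at 90 min (0.53).

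**Figure D5:**
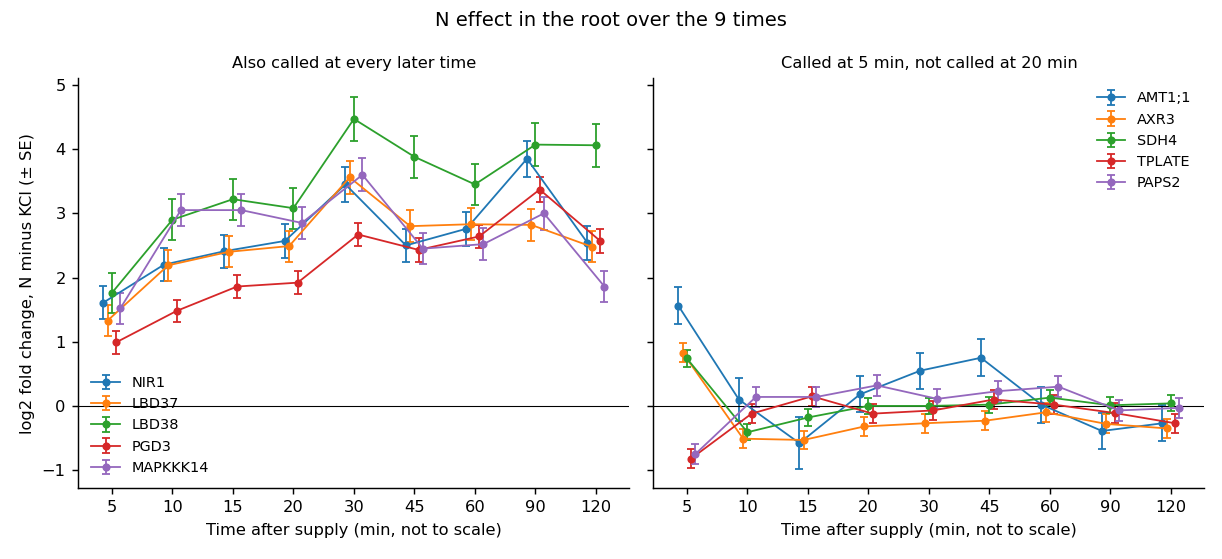
Log2 fold change, N minus KCl in the root (y axis, bars are SE), at the 9 times (x axis, not to scale). On the left 5 genes called higher at every time, with NIR1 rising from 1.61 at 5 min to 3.45 at 30 min. On the right 5 genes called at 5 min (3 higher, 2 lower) and not called at 20 min.

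At 10 min edgeR called 1779 genes higher and 2087 lower, and the N effect differed between 10 and 5 min in 3559 genes (16%). The 10 min calls came to 1559 in all without KCl replicate 1, 1713 without N replicate 1 and 2532 without N replicate 3 of that time. The 3559 became 1829 without N replicate 3 of 5 min, and 2187 and 1833 without KCl replicate 1 and N replicate 1 of 10 min. LBD39 (2.61, SE 0.628) and MAPKKK14 (1.53, SE 0.337) had a larger N effect at 10 min, and AMT1;1 a smaller one (-1.46, SE 0.435). The libraries of 10 and 15 min stand apart from all other root libraries in both treatments, with TMM factors of 0.633 to 0.825 against 1.07 to 1.14 at 5 min, so a difference between 5 and 10 min and a difference between these sets of libraries cannot be told apart. In the shoot 12 genes were called at 5 min (0.0574%), and the N effect differed between root and shoot in 6 genes (0.0264%). Those with a higher N effect in the root were FBA8 (root minus shoot 1.28, SE 0.246) and GAPC1 (1.02, SE 0.196) of glycolysis and the glycine-rich AT4G21620 (1.33, SE 0.254). Those with a lower one were TPLATE (-0.92, SE 0.188), AT4G17150 (-0.9, SE 0.188) and NAC097 (-1.72, SE 0.354). All but TPLATE were named after their values were seen, and no gene passed this test without N replicate 3 of root or shoot or without KCl replicate 2 of the root. The count was 3 without root N replicate 1, 69 without root N replicate 2, 20 without root KCl replicate 3, 2 without shoot KCl replicate 1 and 146 without shoot KCl replicate 2.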

How the data were processed

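PolyA RNA of whole roots was sequenced; the labels' protocols describe stranded libraries (dUTP). For each library the authors deposited 1 file of raw read counts over 28712 genes. Its 5 last lines count reads that belong to no single gene, and these stayed out of library sizes and tests. The submitters' processing notes name TAIR10, TopHat2 (version 2), HTSeq and limma with no role, order or strand setting. Reads of overlapping genes can therefore be misplaced or lost. Symbols come from a reference table of assembly TAIR10.1 (28007 identifiers matched); no coordinates are given because the build names differ. Groups follow organ and time tags and the title letter (C for KCl, N for nitrogen).

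All 57 root libraries (13878732 to 143269564 gene counts) were fitted with 1 mean per group in edgeR 4.0.16 under R 4.3.3. Genes passed filterByExpr (minimum count 10, minimum total 15). TMM scaled the library sizes, and each contrast had a quasi-likelihood F-test with Benjamini-Hochberg adjustment within each contrast, threshold 0.05. The organ difference used both organs. CPM values are counts scaled to the TMM library size, and fold changes are those of the fit. The procedure was tested on simulated counts in which no single library deviated from its group as a whole. That test therefore does not bear on how the calls depend on single libraries. No 2 libraries of a group agreed within sampling noise. Alternatives were RLE factors, other filters, DESeq2 1.42.0, voom of limma 3.58.1, a replicate block, fewer libraries, no organelle genes and a covariate added after seeing the data.

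Named genes are the 15 higher and 15 lower nuclear calls with the smallest p, the 2 members of smallest p of each of 15 lists (208 genes), 10 set genes of nitrate use and the genes called in every fit with 1 library left out; 1 of them is not reported here. The members and lists were chosen with earlier results of these data known. Deviations of same-numbered N and KCl libraries at 5 min were only weakly correlated (see pairing in the closing section). The main fit used no block, and pairing by number is not excluded.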

Additional observations from a re-analysis of the deposited data

Results flagged for a closer look

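The N effect differed between 10 and 5 min in 3559 genes and between root and shoot at 5 min in 6 genes, by contrasts in edgeR with adjusted p below 0.05. The genes below are those chosen by the naming rule for which 1 of these differences passed; other genes of the report passed too and are not repeated. Since the 10 min libraries stand apart in both treatments, time and library set cannot be told apart.

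Genes with a larger log2 N effect at 10 than at 5 min were LBD39 (by 2.61), AT5G10210 (1.87), MAPKKK14 (1.53), RTFL17 (1.36) and HRS1 (0.98). The lower calls at 5 min that were nearer to 0 or above it at 10 min were AT3G02400 (10 minus 5 min 1.16), TAF2 (0.93), NPX1 (0.93), PAPS2 (0.9), AT3G25840 (0.87), AT2G43490 (0.86), AT3G51640 (0.77), TPLATE (0.7), FDM5 (0.7), Hrd1A (0.67), ALB1 (0.67), AT2G19380 (0.66) and GTE4 (0.33). ARR4, not called at 5 min, differed by 0.62.

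Genes with a smaller N effect at 10 than at 5 min were AT1G29660 (10 minus 5 min -1.48), AMT1;1 (-1.46), AXR3 (-1.34), SMT3 (-1.18), CASP1 (-1.17), SDH4 (-1.15), GLN1;1 (-1.11), ABI1 (-0.69) and AT4G29870 (-0.48). TPLATE also differed between organs, with root minus shoot at -0.92. It was not called in the shoot, where its log2 fold change was 0.1.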

How the results depend on the processing

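The count of 436 calls at 5 min was 405 with RLE factors (68.1% of them higher, against 61%), 306 without a filter, 485 with a CPM filter, 409 without organelle genes, 935 with voom, 1084 with DESeq2 and 129 with the covariate; it ran from 4 to 1079 with 1 library left out. With only the libraries compared it was 0, and 0 to 1 with 1 of those 6 left out (1931 to 4589 genes at an unadjusted p below 0.05). For the other comparisons the same restriction gave 134 calls at 10 min, 203 for 10 minus 5 min, 0 for N against time 0 and 0 for the organ difference, and DESeq2 gave 110 for N against time 0 and 42 for the organ difference. Leaving out 1 library gave 1559 to 4995 calls at 10 min, 1829 to 4135 for 10 minus 5 min, 11 to 68 for N against time 0 and 0 to 146 for the organ difference. KCl against time 0 stayed at 0 calls under each alternative run. Why calls moved was not tested, and this includes the fits of 6 libraries, which hold fewer samples. Deviations of same-numbered N and KCl libraries had correlations of 0.11, 0.23 and -0.08. With 3 libraries per group these values cannot exclude pairing by replicate number. With a replicate block the count was 457. With the 6 libraries and a replicate block it was 342 (149 higher, 193 lower, 148 of them among the 436), against 0 without the block. N replicate 1 correlated best with KCl replicate 3 (0.24). Of the named genes' values under the alternatives, 345 lost their call and 11 gained one; no called value changed sign, while the uncalled GRXS4 (-2.52 to 1.03) and GRXS8 (-1.34 to 0.22) did in 5. Each of the 6 libraries holds 39856101 gene counts or more. How far the spread between libraries and counting error each limit what 3 against 3 can show was not tested.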
